A study of Drosophila melanogaster with 2 samples.

Results

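The intergenic peaks away from promoters are the Hr83-GFP binding peaks whose summit lay more than 500 bp from the transcription start site (TSS) of every annotated gene, coding or noncoding, and inside no annotated gene. They numbered 339 of the 4797 peaks in the authors' thresholded list, or 7.07% of them. The other peaks were 1372 with a summit inside a gene and more than 500 bp from a TSS, and 3086 with a summit within 500 bp of a TSS. All data came from 1 group of Drosophila melanogaster, whole wandering larvae of the third instar, of mixed sex, that stably expressed Hr83 with GFP fused to its C-terminus. Chromatin was sonicated and precipitated with an antibody against GFP, in biological replicates 3 and 4. The sources used here give neither the promoter that drives the transgene nor the number of larvae pooled. With 1 group there was no condition to compare, and with no read counts in the files the sequencing depth of the replicates is unknown.

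Hr83 is an orphan nuclear receptor of the NR2E family, to which Tailless, dissatisfaction and unfulfilled also belong, and receptors of this family are known to bind the hexamer AAGTCA. DNA between genes holds enhancers, which act on promoters at a distance, and insulators, which limit that action and are bound in flies by CTCF, Su(Hw) and others. Whole larvae mix many tissues, so a peak does not show in which cells the protein was bound. Peaks were compared here with a census of all positions, taken every 200 bp along the main chromosomes, that meet the same rule. The census held 182285 positions, 27.2% of these chromosomes.

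Sequences at the peaks are shown first, since the text returns to their letters. The windows of 200 bp at 3 of the strongest peaks are read from the RefSeq sequence of the dm6 assembly. Each is centred on the summit and named by the protein-coding gene with the nearest TSS. The 3 were chosen because they hold motifs described below, so they do not show how often strong peaks carry them. Over all intergenic peaks the receptor hexamer was in 9.73% of windows, against 11.4% of census windows. Capitals mark GAGA elements (GAGAGAG or its reverse complement CTCTCTC), the receptor hexamer (AAGTCA or TGACTT), the forkhead site TGTTTAC and the pattern AGNTGGCG (or CGCCANCT) where they occur.
SrpRbeta, chr3L:8702636-8702835, plus strand: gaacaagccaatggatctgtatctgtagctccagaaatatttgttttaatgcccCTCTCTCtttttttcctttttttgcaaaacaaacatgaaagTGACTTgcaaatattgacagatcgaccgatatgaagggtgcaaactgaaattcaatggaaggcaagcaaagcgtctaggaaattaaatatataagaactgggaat
dac, chr2L:16486423-16486622, plus strand: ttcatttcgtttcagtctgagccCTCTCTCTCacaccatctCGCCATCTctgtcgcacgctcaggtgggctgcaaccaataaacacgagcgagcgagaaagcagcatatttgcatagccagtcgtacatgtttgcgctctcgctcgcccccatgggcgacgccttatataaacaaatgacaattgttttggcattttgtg
CG5973, chr2L:7436866-7437065, plus strand: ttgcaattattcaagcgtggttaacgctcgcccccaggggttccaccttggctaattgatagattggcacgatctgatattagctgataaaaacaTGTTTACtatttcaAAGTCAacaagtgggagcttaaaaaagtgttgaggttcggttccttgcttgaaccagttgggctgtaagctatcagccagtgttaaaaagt

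In the window of the strongest peak, nearest coding gene SrpRbeta, the hexamer AAGTCA on the minus strand was centred 2.5 bp from the summit and the GAGA element 43 bp from it. At CG5973 the forkhead site was centred 2 bp from the summit and the hexamer 11.5 bp from it. At dac the GAGA repeat and the AGNTGGCG pattern lay on the same side of the summit, 73 and 55.5 bp away.

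The pattern AGNTGGCG was picked after its frequency at these peaks had been seen, among the words most frequent there, and where its free letter is G it shares the run GGTGGCG with the core GGTGGCGC of the CTCF motif. Its hits at the 12 strongest such peaks on chromosomes X, 2L, 3L and 3R are lined up with 10 flanking bases on each side, in the strand that reads AGNTGGCG, with the pattern in capitals. The counts over all hits follow them.
Lamtor5, chrX:1854184-1854211, minus strand: gcttccgcaaAGTTGGCGttacagcttt
dac, chr2L:16486454-16486481, minus strand: cgtgcgacagAGATGGCGagatggtgtg
CG42758, chr3L:14564519-14564546, plus strand: cttagcatttAGTTGGCGgtgcctcatt
hng3, chr3L:765757-765784, minus strand: cttaactgaaAGTTGGCGtcgcaagatt
CG15282, chr2L:14706329-14706356, minus strand: atttgcctatAGGTGGCGcggattacag
jp, chr2L:9567475-9567502, minus strand: gctactcgctAGGTGGCGcatgctactt
CG10651, chr2L:20121104-20121131, plus strand: aaataccgccAGGTGGCGtagttttacc
His3.3B, chrX:9152446-9152473, minus strand: cgggcgggatAGGTGGCGatggtacagt
NLaz, chr2L:1362423-1362450, minus strand: agcgctcaacAGATGGCGctggcagaag
Gr89a, chr3R:16497514-16497541, minus strand: gtcttttgctAGATGGCGcttttttagt
soti, chr3R:14391439-14391466, minus strand: cagttgttgtAGATGGCGccaagtctag
Sid, chr3R:28672412-28672439, minus strand: ttttgttaatAGATGGCGctagtcgatg

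Of the 39 peaks with this pattern in their 200 bp window, 25 had C as the next letter and 20 had T as the letter before. The free letter was A at 16 peaks, G at 15, T at 7 and C at 1. These counts describe the hits that the pattern selected.

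The intergenic peaks had the deposited signal, the authors' own score per peak, between 63.4 and 717, with a median of 87.4 (95% interval of the median 84.2 to 93.5) and quartiles of 72.6 and 125. The median was 89.6 for peaks inside genes and 96.7 for peaks within 500 bp of a TSS. Most intergenic peaks, like most peaks inside genes, lay in the lower 50% of the list by signal, and a few had far higher signals. Of the 339 peaks, 149 (44.0%, 38.6 to 49.4) were in the upper 50% of the list by signal. Among its 100 strongest were 5 (1.47%, 0.481 to 3.41), near the 2.08% of all peaks. That share was 2.55% for peaks inside genes and 1.94% for peaks within 500 bp of a TSS, whose highest signals were 1107 and 1278. The share in the upper 50% was 45.3% (42.7 to 48.0) for peaks inside genes and 52.7% for peaks within 500 bp of a TSS. All intervals over peaks cover counting error only, and differences between classes of peaks were not tested, since peaks are not replicates of a condition.

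Peak width went with the signal. Of the intergenic peaks, 34 were narrower than the full width of 256 bp, with a median signal of 186, and the full-width peaks had a median of 84.5. Among all thresholded peaks 8.84% were narrow. By distance, the median signal was 93.9 for the 104 peaks at 500 bp to 1 kb from a TSS, 88.1 for the 165 at 1 to 5 kb and 81.1 for the 70 beyond 5 kb. The intervals of the first and last of these medians, 85.5 to 105 and 73.8 to 86.4, overlap.

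**Figure D1:**
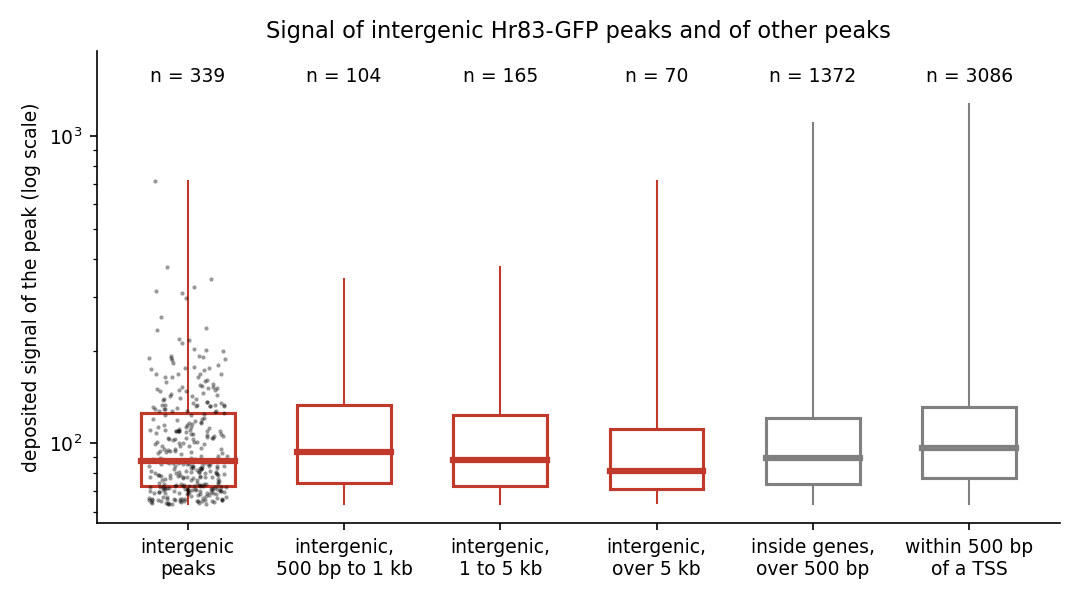
Deposited signal (log scale) of the intergenic peaks, all and by distance to the nearest TSS, beside peaks inside genes and peaks within 500 bp of a TSS. Boxes span the quartiles with the median as a thick line, thin lines run from the lowest to the highest value, and dots are the 339 intergenic peaks. Medians run from 93.9 nearest to a TSS to 81.1 beyond 5 kb, and the strongest intergenic peak is at 717.

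The replicates supported the intergenic peaks to different degrees. When each replicate was represented by as many of its strongest regions as the thresholded list holds, 187 of the 339 peaks (55.2%, 49.7 to 60.5) overlapped a region in both, against 60.9% of all thresholded peaks. The share was 54.3% for peaks inside genes and 64.5% for peaks within 500 bp of a TSS. By replicate, 232 peaks (68.4%) overlapped the strongest regions of replicate 3 and 269 (79.4%) those of replicate 4, against 76.3% and 80.6% of all peaks. In 82 peaks (24.2%) the overlap was with replicate 4 alone and in 45 (13.3%) with replicate 3 alone, against 19.7% and 15.4% of all peaks. A further 25 peaks (7.37%, 4.83 to 10.7) overlapped neither, beside 3.98% of all peaks. These 25 entered the thresholded list although neither replicate placed them among its strongest regions.

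In the complete relaxed lists of 30000 regions, 330 peaks (97.3%) had a region in both replicates, against 97.8% of all peaks. Replicate 3 lacked a region for 8 peaks and replicate 4 for 1. Over the 330 peaks Spearman's rho between the ranks in replicates 3 and 4 was 0.36, beside 0.40 over all 4690 peaks found in both, which describes peaks that share libraries. The rank was at least 5 times better in replicate 4 for 36 of the 330 peaks and in replicate 3 for 19, beside 341 and 245 of all 4690. Support in both replicates was 61.5% at 500 bp to 1 kb, 53.9% at 1 to 5 kb and 48.6% beyond 5 kb, with intervals that overlap.

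**Figure D2:**
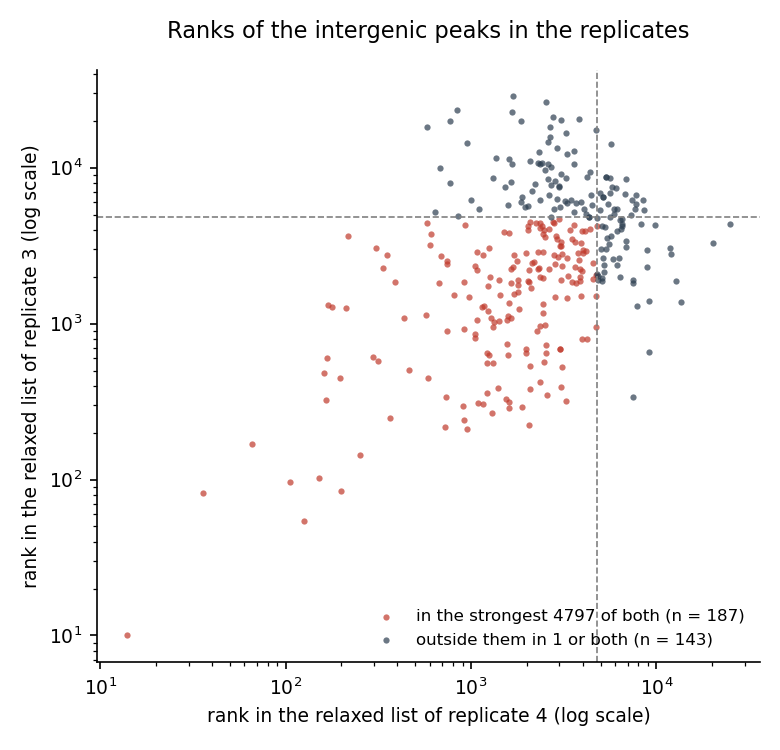
Rank of each intergenic peak in the relaxed list of replicate 4 (x) and of replicate 3 (y), both on log scales, where 1 is the strongest region. Dashed lines mark rank 4797. Red points are the 187 peaks among the strongest regions of both replicates and dark points the others with a region in both lists, and the point at the lower left is the strongest peak, with ranks 14 and 10.

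The strongest intergenic peak lay at chr3L:8702626-8702824, in a gap of 25757 bp between the noncoding gene lncRNA:CR44526 and SrpRbeta, which encodes the beta subunit of the signal recognition particle receptor. Its signal of 717 was the 9th highest of all 4797 peaks, and its rank was 10 in replicate 3 and 14 in replicate 4. The nearest TSS, of the noncoding gene, was 10033 bp away. No other intergenic peak came near this signal.

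The second peak, with a signal of 375 and ranks of 82 and 36 in replicates 3 and 4, lay in the same gap at chr3L:8696506-8696648. Its nearest coding gene was hry (hairy), a bHLH transcriptional repressor of segmentation and bristle patterning, whose TSS was 20619 bp away. The tenth strongest, with 234 and ranks of 482 and 162, lay in this gap too. So 3 of the 10 strongest intergenic peaks shared 1 stretch of DNA.

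The third peak, with a signal of 342 and ranks of 54 and 125, lay 545 bp upstream of sp3, in the gap that follows C15, a homeobox gene of distal leg patterning. The fourth, with 323 and ranks of 96 and 105, lay between Rh5, a rhodopsin gene of the photoreceptors, and lncRNA:CR44588. The fifth, with 315 and ranks of 169 and 66, lay between prage and Lamtor5, which encodes a subunit of the lysosomal Ragulator complex. The ranks of all 3 were near the top of both lists.

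Next came a peak 525 bp upstream of dac, which encodes a nuclear factor of eye and leg development, with a signal of 308 and ranks of 84 and 200. The peaks upstream of CG32986 and Aldh-III, an aldehyde dehydrogenase gene, had 298 and 257. The peak upstream of CG5973 had 238, with ranks of 326 and 166. The other 10 of the 20 strongest peaks had signals of 190 to 219. Their nearest coding genes were Gdi, which encodes a Rab GDP dissociation inhibitor, Apoltp, Shrm, CG9932, CG42758, COX7AL2, hng3, dikar, Camp and DNAlig3. Each of the 20 peaks was among the strongest regions of both replicates. Shrm, which encodes an actin-binding regulator of cell shape, had the least even ranks with COX7AL2, at 1269 and 177 for Shrm and 1309 and 170 for COX7AL2.

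The intergenic peaks lay closer to genes than the census of positions under the same rule. The census was not filtered for repeats or unsequenced bases. On average 26.6% of a census window was soft-masked, against 15.1% at the peaks. How far this contributes to the differences in distance and gap length was not tested. Their median distance to the nearest TSS was 1795 bp (1593 to 2111), with quartiles of 851 and 4383.5 bp and a maximum of 32552 bp, against a census median of 5939 bp. The share within 1 kb of a TSS was 30.7% (25.8 to 35.9), against 7.71% of census positions, and 20.6% against 55.1% lay beyond 5 kb. The nearest TSS belonged to a protein-coding gene for 232 peaks, a noncoding RNA gene for 97, a tRNA gene for 8 and a pseudogene for 2. The share nearest to a tRNA gene was 2.36% (1.02 to 4.60), against 0.900% of the census.

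Gaps that hold the peaks were short, with a median of 6301 bp against 19415 bp for census positions. In gaps under 2 kb lay 69 peaks (20.4%), against 4.17% of census positions. The distance to the edge of the gap, which is the nearer gene boundary, had a median of 1054 bp against 4228 bp, and 35 peaks lay within 200 bp of it. Divergent gaps, whose flanking genes are both transcribed away from the gap, held 84 peaks (24.8%, 20.3 to 29.7) against 21.0% of census positions. Tandem gaps held 164 peaks (48.4% against 52.4%) and convergent gaps 91 (26.8% against 26.6%), so orientation was near the census in all 3 kinds. On the upstream side of the nearest coding gene lay 214 peaks (63.1%, 57.7 to 68.3), against 59.0%.

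**Figure D3:**
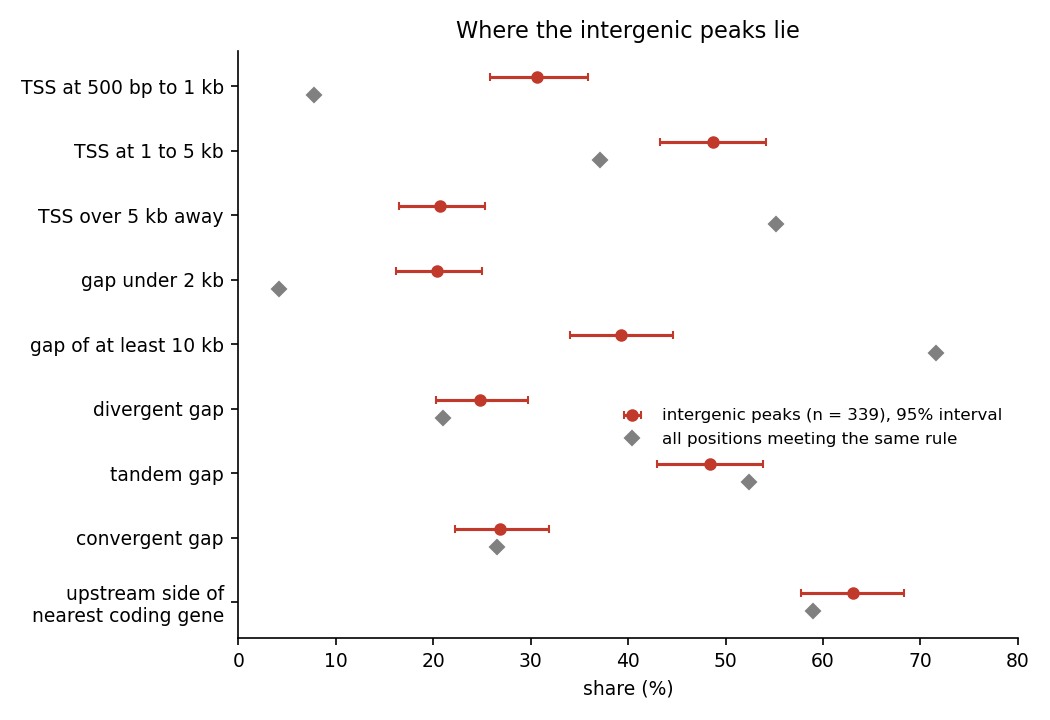
Share (%) of the 339 intergenic peaks (red, with 95% exact binomial intervals) and of all positions that meet the same rule (grey diamonds) by distance to the nearest TSS, length and orientation of the gap between genes, and side of the nearest coding gene. The shares differ most by distance, 30.7% against 7.71% within 1 kb of a TSS, and little by orientation.

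Along the chromosomes, 3L held 113 peaks, or 33.3% (28.3 to 38.6), against 24.9% of census positions and 21.2% of all thresholded peaks. Counted by gaps, so that peaks in 1 gap count once, 3L held 76 of 268 (28.4%). The X chromosome held 32 peaks (9.44%, 6.55 to 13.1), against 14.6% of the census and 13.2% of all peaks. Counted by gaps, X held 30 of 268 (11.2%). Chromosome 2L held 65 peaks, 2R 56, 3R 69 and 4 had 4. Median signals ran from 82.3 on X to 104 on 2L, and the 4 peaks of chromosome 4 had a median of 155.

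Most gaps with an intergenic peak held a single one. Of the 268 gaps with a peak, 224 held 1, 35 held 2 and 9 held 3 or more, with 45 peaks in those 9. The nearest other thresholded peak was a median of 3904 bp away, 91 peaks had one within 1 kb, 184 within 5 kb, and 59 had none within 20 kb.

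The gap between lncRNA:CR44526 and SrpRbeta held 9 peaks whose signals ran from 65.3 to 717. Of these, 5 were among the strongest regions of both replicates. The peak with 112 had rank 514 in replicate 4 and no region in replicate 3, and the peak with 70.4 had ranks of 20977 in replicate 3 and 2773 in replicate 4. All but 1 of the 9 summits lay between 3.4 and 11.8 kb from the start of the gap, and the last lay at 25.6 kb, near SrpRbeta. A further pair of peaks lay between hry and lncRNA:CR44526, with signals of 69.9 and 69.1, neither among the strongest of both replicates.

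The gap of 18866 bp between lncRNA:CR45755 and lncRNA:CR45437 held 7 peaks, with signals of 66.2 to 169 and 3 among the strongest of both replicates. The gap of 5808 bp between COX7AL2, a gene for a cytochrome c oxidase subunit, and CG31668 held 5 peaks, with signals of 78.2 to 201 and 4 among the strongest of both. The gap between lncRNA:CR45036 and lncRNA:CR42755 also held 5, with signals of 69.3 to 126. Rh5 had gaps with several peaks on both sides, 4 toward Hacd1 with signals of 73.6 to 168, and 3 toward lncRNA:CR44588 with 64.3 to 323. The gaps from hng3 to tRNA:Ile-TAT-1-1, from NijA to CG43245 and from lncRNA:CR44761 to Ppa held 4 each.

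**Figure D4:**
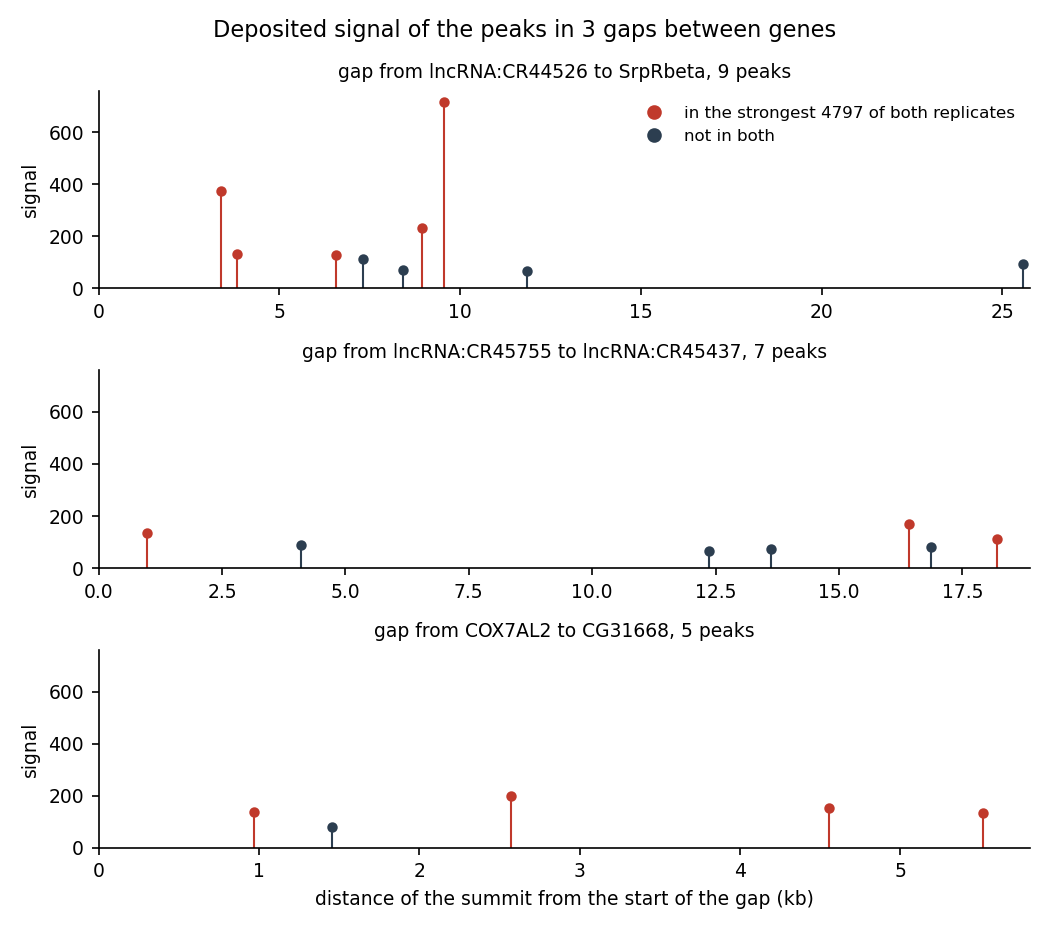
Deposited signal of the intergenic peaks in 3 gaps between genes, by distance in kb from the start of the gap, with each peak a vertical line. Red marks peaks among the strongest 4797 regions of both replicates. The first gap holds 9 peaks with the tallest at 717, the second 7 of at most 169 and the third 5 of at most 201.

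The 339 peaks had 261 distinct nearest coding genes, 215 of them nearest to a single peak and 93 known only by a CG number. SrpRbeta was nearest to 7 peaks, hng3 to 6, and Rh5, CG6163 and CG33687 to 5 each. Nearness assigns no target, since an intergenic element can act past the nearest gene. For each list of genes the share of peaks is given beside the share of census positions nearest to the same genes. A share over all thresholded peaks is not given for the lists. The values therefore do not show whether nearness to a list is particular to intergenic peaks.

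Genes of disc patterning, transcription factors and signals that lay out the imaginal discs, were nearest to 11 peaks, or 3.24% (1.63 to 5.73), against 2.47% of the census. These were 9 of the 60 genes on the list. The peak of zfh2 had a signal of 188 with ranks of 269 in replicate 3 and 1292 in replicate 4, and that of so, a homeobox gene of eye development, had 109 with ranks of 7955 and 768. The peak of toe, a Pax-family gene, had 83.1. The 3 peaks of noc, a zinc finger gene of wing and eye development, had 92.1, 84.2 and 64.0. Of these 11 peaks 5, those of dac, zfh2, Dll, hh and 1 of noc, were among the strongest regions of both replicates. The share was 1.49% among replicate 3's own intergenic regions, taken without replicate 4, and 3.59% among those of replicate 4.

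Signalling genes each had a few peaks. The insulin and TOR list, which governs growth by nutrition, had 5 peaks (1.47%, 0.481 to 3.41) against 0.225% of the census. They were 2 at scyl, an inhibitor of TOR, with signals of 121 and 120, 1 at Thor, the translation inhibitor 4E-BP, with 93.5, and 2 at foxo, the forkhead factor restrained by insulin, with 73.9 and 71.9. Both peaks of scyl were among the strongest regions of both replicates, with ranks of 1748 and 1808 in replicate 3 and 1236 and 1645 in replicate 4. The Notch list had 4 peaks (1.18%, 0.322 to 2.99) against 0.119% of the census, at E(spl)mgamma-HLH (117), the ligand gene Ser (88.1), E(spl)malpha-BFM (78.4) and fng, which encodes a glycosyltransferase that modifies Notch (72.9). The peak of fng had no region in replicate 3.

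For the Wnt list, 4 peaks (1.18%, against 0.280% of the census) lay nearest to the receptor gene fz3 (signal 110) and the ligand genes wg (72.9), Wnt4 (69.9) and Wnt10 (66.1), and none of them was among the strongest regions of both replicates. The peak of fz3 had rank 577 in replicate 4 and 18307 in replicate 3. The EGF receptor list had 2 peaks (0.590%), near its census share of 0.533%, and here kek1, an inhibitor of the receptor, had a signal of 106 and the kinase gene Raf 99.5. In the Dpp list Dad, the inhibitory Smad, had 1 peak with 71.4 (0.295% of peaks, against 0.0653% of the census). The ligand gene hh had the only peak of the Hedgehog list, with 68.9 (0.295%, against 0.0422%).

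Genes of the ecdysone response, the steroid program that ends larval life, were nearest to 4 peaks (1.18%, 0.322 to 2.99), against 0.375% of the census. Eip75B, a nuclear receptor gene, had a peak with a signal of 89.0, Eip93F one with 81.4, the cell death gene hid one with 78.6 and the repressor gene Blimp-1 one with 67.8. Of these 4 peaks, all but that of Eip93F were among the strongest regions of both replicates. By TSS, Eip75B was the only one of 21 nuclear receptor genes nearest to an intergenic peak (0.295% of peaks, against 0.298% of the census). This measure leaves out peaks near the end of a receptor gene. A peak with 148, picked after its values were seen, lay 264 bp from the end of Hr51, but its nearest TSS was that of unc-5.

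Forkhead factor genes had 5 peaks (1.47%, 0.481 to 3.41) against 0.336% of the census, at fd96Ca (100), croc (97.8), bin (65.4) and the pair at foxo. All 4 peaks of the proneural and bHLH list (1.18%, against 0.184% of the census) were nearest to hry, with signals of 375, 132, 69.9 and 69.1. Single peaks (0.295%) lay nearest to the muscle gene Zasp52 (signal 175), where the census share of the list was 0.284%, and to the C2H2 zinc finger gene lola (82.2), where it was 0.116%. The ribosomal protein genes RpS15Aa (114) and RpS23 (96.6) had 1 peak each, 0.590% against a census share of 0.943%. The cuticle genes Cpr76Ba (149) and Cpr35B (78.6) also made up 0.590%, against 0.436%, and the gustatory receptor genes Gr89a (139) and Gr93b (84.3) 0.590%, against 1.64% for the sensory receptor list. No intergenic peak lay nearest to a gene of the lists of Hox, salivary gland, GATA, hemocyte, fat body, neuronal, glial or heat shock genes, and 0 of 339 allows a share of up to 1.08%. The census shares of these lists were themselves only 0.0252% to 0.358%.

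Motif counts were made on exact letters, on both strands, in the 200 bp around each summit. The GAGA element, bound by the GAGA factor Trl, was in 36 windows (10.6%, 7.55 to 14.4), against 12.0% of all thresholded peaks and 2.18% of census windows. Its share was 15.2% at peaks inside genes and 10.7% within 500 bp of a TSS. A CA repeat (CACACACA) was in 39 windows (11.5%, 8.31 to 15.4), against 10.6% of all peaks and 3.91% of the census. The GATA factor site GATAAG was in 45 (13.3%), against 13.0% and 7.89%, and the forkhead site in 25 (7.37%), against 8.92% and 3.74%. For these 4 the intergenic peaks were near the level of all peaks and above the census.

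By distance, the GAGA element was in 18.3% (11.4 to 27.1) of windows at 500 bp to 1 kb from a TSS, 6.67% (3.37 to 11.6) at 1 to 5 kb and 8.57% (3.21 to 17.7) beyond 5 kb, with intervals that overlap, while census windows of the first 2 classes had 2.33% and 2.14%. Among hits within 250 bp of the summit, 29.3% (22.9 to 36.5) of GAGA elements lay within 50 bp, where an even spread gives 20% and the interval over all thresholded peaks was 25.3% to 28.8%. For CA repeats it was 36.0% (29.1 to 43.3), against 24.8% for all peaks, and 27.8% and 23.9% among the intergenic regions of replicate 4 alone and replicate 3 alone.

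The CTCF core GGTGGCGC was in 15 intergenic windows, or 4.42% (2.50 to 7.19), against 1.36% of all thresholded peaks. Peaks inside genes had it in 1.68% (1.07 to 2.50), peaks within 500 bp of a TSS in 0.875% (0.577 to 1.27) and the census in 0.394%. Of 21 hits within 250 bp of a summit, 12 (57.1%, 34.0 to 78.2) lay within 50 bp, against 37.8% (29.1 to 47.2) for all peaks, with intervals that overlap. The 15 peaks were not the strongest, with a median signal of 89.0 and a maximum of 190, at CG15282, whose segment is printed above. Of the 15, 10 (66.7%, 38.4 to 88.2) were among the strongest regions of both replicates, near the 60.9% of all peaks.

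The wider pattern AGNTGGCG was in 39 intergenic windows (11.5%, 8.31 to 15.4), against 4.69% of all peaks. The share was 5.03% at peaks inside genes, 3.79% within 500 bp of a TSS and 1.96% in the census. It or the CTCF core was in 40 windows. Of 64 hits within 250 bp of a summit, 29 (45.3%, 32.8 to 58.3) lay within 50 bp, against 38.0% for all peaks, and 8 peaks held more than 1 hit in the window. Since the pattern was chosen on these peaks, its shares at them support nothing beyond the count. The peaks of Lamtor5, dac, CG42758 and hng3, all among the 20 strongest, carry it.

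Other factor sites were rarer. The Zelda site CAGGTAG was in 13 windows (3.83%, 2.06 to 6.47), against 1.13% of all peaks and 0.871% of the census. Its share was 1.24% at peaks inside genes and 0.778% within 500 bp of a TSS. Of its 16 hits within 250 bp, 7 (43.8%, 19.8 to 70.1) lay within 50 bp of the summit, against 21.9% (15.3 to 29.8) for all peaks, with intervals that overlap. Those 13 peaks had a median signal of 72.8, and the strongest of them, with shg as nearest coding gene, had 175. Of the 13, 6 were among the strongest regions of both replicates, where the share over all peaks was 60.9%. The Grainyhead site AACNGGTT was in 14 (4.13%, 2.28 to 6.83), against 3.59% and 1.70%, and the Su(Hw) core TGCATACT in 6 (1.77%, 0.652 to 3.81), against 0.605% and 0.913%. The DRE (TATCGATA), an element of core promoters, was in 5 windows (1.47%, 0.481 to 3.41), against 6.48% of all peaks and 9.79% of peaks within 500 bp of a TSS. Its share was 0.292% at peaks inside genes and 0.440% in the census. Motif 1 (GTCACACT), another such element, was in 2 windows (0.590%), against 3.84% of all peaks, 5.67% within 500 bp of a TSS, 0.510% inside genes and 0.310% in the census.

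The receptor hexamer AAGTCA was in 33 intergenic windows (9.73%, 6.80 to 13.4), against 8.65% of all peaks and 11.4% of the census. Its hits lay within 50 bp of the summit in 21.4% of cases (13.2 to 31.7), near the 20% of an even spread. The longer form AAAAGTCA, which contains the hexamer, was in 6 windows (1.77%, 0.652 to 3.81) against 1.77% of the census. The hexamer AGGTCA of many other nuclear receptors was in 6 (1.77%), against 3.00% of all peaks and 5.04% of the census, and the homeobox site TAATTA in 22 (6.49%), against 7.80% and 14.2%. For both forms of the receptor family's own site the census share lay inside the interval of the peaks. Census windows had less GC, 40.5% on average against 45.9% at the peaks. How far this contributes to the differences in motif shares from the census was not tested. A missing match says only that these letters are not in the window.

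**Figure D5:**
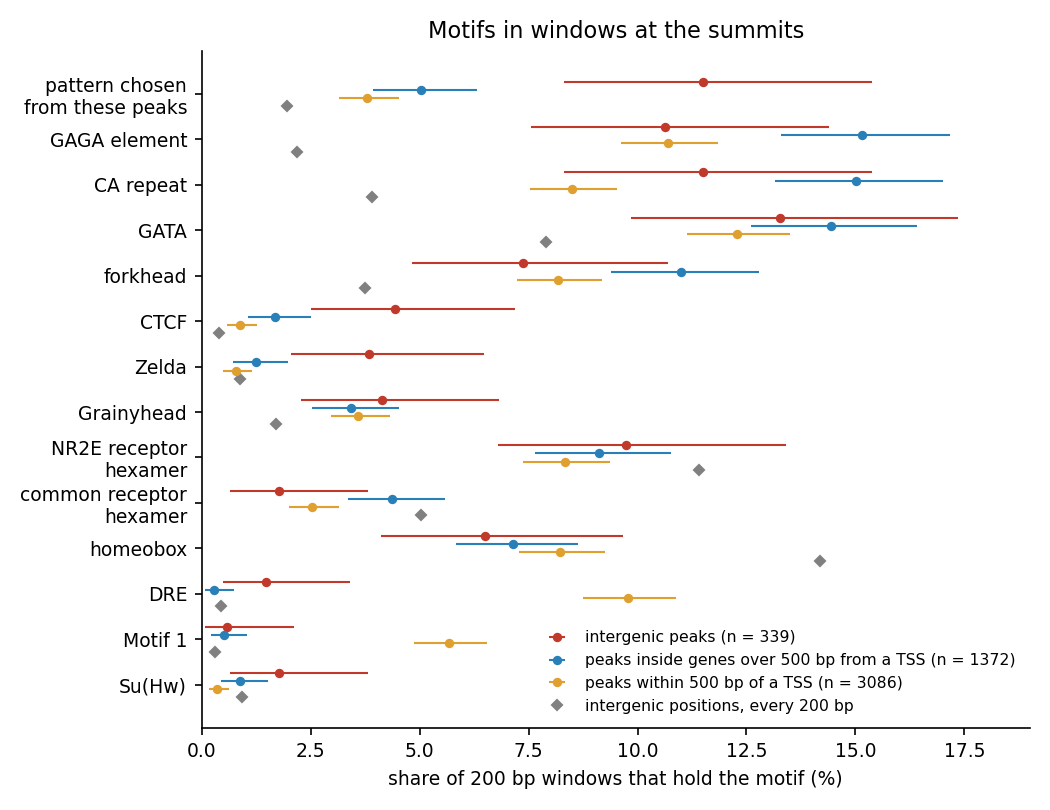
Share (%) of 200 bp windows that hold each motif, at the intergenic peaks (red), at peaks inside genes over 500 bp from a TSS (blue) and at peaks within 500 bp of a TSS (yellow), with 95% exact binomial intervals, and at census positions (grey diamonds). The top row is the pattern picked on these peaks. The CTCF core is at 4.42% of intergenic peaks and 0.875% of peaks within 500 bp of a TSS, and the DRE at 1.47% and 9.79%.

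Of the 339 windows, 49 (14.5%) held none of the 21 motifs searched. The share over all peaks is not given, so this count does not show anything particular to intergenic peaks. GC content was 45.9% ± 7.76 (SD over the 339 windows), against 44.7% in all peaks and 40.5% in the census. Soft-masked repeats made up 15.1% of the intergenic windows on average, against 15.3% at all peaks and 26.6% in the census. A RefSeq mobile element covered the summit of 2 peaks (0.590%, 0.0715 to 2.11), against 0.0834% of all peaks, and none lay inside a RefSeq gene. Only 1 window, near CG5273 on X with a signal of 164, had another place in the genome at 90% identity over at least 80% of its length. That is 0.295% (0.00747 to 1.63), against 0.188% of all peaks.

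Peaks just inside the 500 bp rule were those of bowl, 503 bp from a TSS with a signal of 136, and Sqor, at 505 bp with 71.3. Just outside were peaks at lncRNA:CR45541, at 500 bp with 131, and at lncRNA:CR45277, at 499 bp with 126. Values on either side of the limit overlapped.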

How the data were processed

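Peak lists came from 1 group, Hr83-GFP larvae, replicates 3 and 4. The authors deposited, on dm6, a relaxed list of 30000 regions per replicate and 1 thresholded list, with notes on how they were made. By those notes, regions of each replicate and of the pool were found relative to a control, and peaks were kept by the irreproducible discovery rate between the replicates. An aligner or caller is not given in the sources used here. In both kinds of list the deposited signal is the authors' score per peak, used only within a list.

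Summits were placed on the Ensembl release 115 annotation, with its transposable elements not counted as genes, and windows were read from the dm6 genome, where 99.3% to 99.95% of annotated start codons read ATG. Shares have 95% Clopper-Pearson intervals and medians order-statistic intervals, both for counting error only. No test was run over peaks. Copies were searched with BLAST+ 2.17.0. Scripts used Python 3.11.15, numpy 2.4.6, scipy 1.17.1 and matplotlib 3.10.9 and were tested on simulated data. Named genes are the nearest coding and flanking genes of the 20 strongest peaks, up to 4 per list, and the flanking genes of gaps with 3 or more peaks. Genes beside the pattern's hits or the 500 bp limit, and those nearest to most peaks, were chosen after their values were seen. The peaks, the 24 gene lists and the 21 motifs were chosen with earlier results of these data known, and 9 list symbols matched no gene.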

Additional observations from a re-analysis of the deposited data

How the results depend on the processing

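No paired analysis was possible because the samples form 1 group with no second group to pair. Of 56 alternatives, 35 stayed near the reported value and 21 moved. The number of intergenic peaks ranged from 235 with a TSS distance of 1 kb to 476 with protein-coding genes only, and was 332 with transposable elements counted as genes, an alternative chosen after seeing the data. Among the upper 50% of peaks by signal it was 149. Without 1 replicate, the other's own regions gave 335 to 362 that meet the rule, of which 68.1% to 74.0% overlap an intergenic peak, median signals of 39.1 to 57.4 on that list's own scale, support of 68.4% to 79.4%, 1.49% to 3.59% nearest to disc patterning genes, and 23.9% to 27.8% of CA repeats near the summit. Support in both replicates was 42.2% at 50% reciprocal overlap, 27.4% over 50% of those regions and 97.3% over the complete lists. The median distance to a protein-coding TSS was 2745 bp. In windows of 100 and 500 bp the share was 5.90% and 17.7% for GAGA, 7.08% and 18.3% for CA repeats, and 6.78% in 100 bp for AGNTGGCG. Within 25 bp of the summit lay 14.1% of GAGA, 18.5% of CA repeat and 33.3% of CTCF hits. A copy at 95% identity over 90% of the window was found for 0% of peaks. The cause of these moves was not tested beyond the construction of each alternative (narrower windows, fewer regions, or a share over 1 replicate in place of both). The low counts behind the CTCF and gene list shares, and 2 replicates of unknown depth, limit the precision.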

Other observations

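Of the 268 gaps with an intergenic peak, 35 held 2, and some of these are given here, chosen after their values were seen and with no gene list behind them. The gap between ph-d and ph-p held peaks with signals of 107 and 76.9. Their ranks were 641 and 1635 in replicate 4, against 5171 and 8148 in replicate 3, so neither was among the strongest 4797 regions of both. The gap between CG13321 and Psc held peaks with 110 and 70.9, of which only that with 110 was among the strongest of both. The gap of 36783 bp between Su(z)2 and CG13323 held peaks with 116 and 95.6. The first had CG13323 as nearest coding gene, with its TSS 11984 bp away, and the second Su(z)2, at 18694 bp. Both peaks in this gap were among the strongest regions of both replicates. So were both peaks beside dve, a homeobox gene, with 151 and 89.7, and both peaks between CG7484 and Crtc, with 177 and 161.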
